A study of Homo sapiens with 6 samples.

Results

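Aminoacyl-tRNA synthetases are the enzymes that join each amino acid to its transfer RNA before translation. The genes described here are 36 listed synthetase genes, 20 of which encode the cytosolic enzymes and 16 the mitochondrial enzymes, whose symbols end in 2. The list was applied by symbol to the 26484 genes in the deposited tables, and all 36 symbols were found in the older spelling (AARS rather than AARS1). The 16 mitochondrial genes are not the complete mitochondrial set. The samples were MCF10CA1a cells, a malignant line of the MCF10A human breast epithelial lineage, on hydrogel dishes of 8000 Pa (stiff, 3 libraries) or 500 Pa (soft, 3 libraries). At either stiffness the gels were coated with Matrigel, the growth factor-reduced kind, at 0.14 mg/ml, and the medium held horse serum. In all libraries the medium was changed on day 4. RNA was taken on day 5, and the labels call it cytosolic. As a model this is a single cell line.

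Each synthetase belongs to class I or class II by the fold of its catalytic core, and in human cells EPRS carries a catalytic unit of each class in a single chain. Of the cytosolic enzymes, EPRS, IARS, LARS, QARS, MARS, KARS, RARS and DARS sit in the multi-synthetase complex, held together by the scaffold proteins AIMP1, AIMP2 and EEF1E1, and the others work outside it. KARS and GARS transcripts also give rise to the mitochondrial form of their enzyme, while the genes ending in 2 serve the mitochondrial ribosome alone. When amino acids run short or the endoplasmic reticulum is stressed, the transcription factor ATF4 raises many cytosolic synthetase genes together with amino acid transporters and biosynthetic enzymes. ATF4 binds with C/EBP partners to a composite element that reads TGATGNAA in its core.

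The cytosolic promoters that hold this core are shown first, because the synthetase values are later set beside the ATF4 response. RefSeq promoter windows (GRCh38.p14), from 250 bases before to 50 bases after the annotated start, were matched for 30 of the 36 genes. Those of DARS, LARS, VARS, YARS, AARS2 and VARS2 were not used here. TGATGNAA was searched on both strands. It was found in 6 of 16 cytosolic windows (37.5%), in 1 of 14 mitochondrial windows (7.14%, YARS2) and in 3.62% of all 35116 windows of the same length. All 6 cytosolic matches were among the 10 matched genes reported as induced by ATF4 (60%), and none of the 6 other cytosolic windows held it (0 of 6). Each of the 6 read TGATGCAA, on the minus strand of the window in AARS, CARS, IARS, MARS and TARS (seen as TTGCATCA) and on the plus strand in NARS. In the sequences here, written 5′ to 3′ along the gene, capitals mark the match.
AARS promoter, chr16:70289457-70289756, minus strand: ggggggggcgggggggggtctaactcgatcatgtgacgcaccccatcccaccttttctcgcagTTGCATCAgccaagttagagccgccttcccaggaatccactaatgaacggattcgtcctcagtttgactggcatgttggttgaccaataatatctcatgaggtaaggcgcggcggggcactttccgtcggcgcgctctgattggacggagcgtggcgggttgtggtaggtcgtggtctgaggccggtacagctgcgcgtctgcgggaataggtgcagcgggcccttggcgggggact
CARS promoter, chr11:3057374-3057673, minus strand: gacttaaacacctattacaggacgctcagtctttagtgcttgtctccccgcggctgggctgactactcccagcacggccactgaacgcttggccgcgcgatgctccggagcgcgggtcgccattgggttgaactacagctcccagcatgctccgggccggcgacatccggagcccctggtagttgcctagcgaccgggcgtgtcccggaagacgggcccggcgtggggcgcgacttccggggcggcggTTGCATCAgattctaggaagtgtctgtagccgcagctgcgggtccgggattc
IARS promoter, chr9:92293648-92293947, minus strand: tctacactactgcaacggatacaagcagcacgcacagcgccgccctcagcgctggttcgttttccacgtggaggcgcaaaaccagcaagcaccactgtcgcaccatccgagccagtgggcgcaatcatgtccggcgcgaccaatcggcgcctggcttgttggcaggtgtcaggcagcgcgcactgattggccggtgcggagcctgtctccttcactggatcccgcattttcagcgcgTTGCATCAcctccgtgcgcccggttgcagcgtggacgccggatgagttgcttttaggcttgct
MARS promoter, chr12:57487818-57488117, plus strand: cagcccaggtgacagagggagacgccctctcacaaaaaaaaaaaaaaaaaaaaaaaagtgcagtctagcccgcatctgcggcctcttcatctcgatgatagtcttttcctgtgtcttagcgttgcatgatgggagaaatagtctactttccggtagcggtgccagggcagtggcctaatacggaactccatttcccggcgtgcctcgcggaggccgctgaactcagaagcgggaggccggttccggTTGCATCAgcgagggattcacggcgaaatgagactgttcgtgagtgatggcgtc
NARS promoter, chr18:57621787-57622086, minus strand: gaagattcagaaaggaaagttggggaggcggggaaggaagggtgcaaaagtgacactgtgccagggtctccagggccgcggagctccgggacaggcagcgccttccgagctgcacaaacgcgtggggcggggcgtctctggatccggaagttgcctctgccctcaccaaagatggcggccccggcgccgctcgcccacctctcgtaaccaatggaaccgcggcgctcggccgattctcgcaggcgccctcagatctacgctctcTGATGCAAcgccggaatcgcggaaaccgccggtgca
TARS promoter, chr5:33440715-33441014, plus strand: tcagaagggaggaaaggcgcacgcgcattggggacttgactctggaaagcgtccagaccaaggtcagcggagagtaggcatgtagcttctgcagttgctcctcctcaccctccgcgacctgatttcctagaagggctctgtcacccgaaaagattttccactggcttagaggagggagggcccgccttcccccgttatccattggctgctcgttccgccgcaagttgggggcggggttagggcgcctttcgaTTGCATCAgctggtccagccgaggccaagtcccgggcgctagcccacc
The first base of the match lay 187 bases before the start in AARS, 13 before it in IARS, 4 before it in MARS and 2 before it in CARS. In TARS it lay 2 bases after the start and in NARS 14 after it. A match is a run of letters and not a measured binding site.

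Library totals ran from 8305601 to 18779742 counts. In a principal component analysis 49.1% of the variance lay on component 1, which ran from 8000 Pa replicate 1 (-62.3) to 500 Pa replicate 3 (47.8), so those libraries stood farthest apart. Breast epithelial markers were present in every library, with EPCAM at 138 to 344.5 CPM (read counts scaled to library size with TMM, a trimmed-mean factor) and KRT8 at 5952 to 14850 CPM. Of the leukocyte markers, PTPRC and CD3E were at 0 in all 6 libraries, while CD14 was present in each, and the sum of the 3 was 7.59 to 20.2 CPM at 8000 Pa and 7.32 to 11.6 CPM at 500 Pa. Of the fibroblast markers, COL1A2 was at 0 throughout, COL1A1 had 9 to 36 counts a library, and the sum with PDGFRB was 0.959 to 4.65 CPM at 8000 Pa and 0.838 to 1.86 CPM at 500 Pa. The 3 endothelial markers summed to 208 to 251 CPM at 8000 Pa and 92.7 to 149 CPM at 500 Pa, with VWF at most 0.429 CPM. PECAM1 rose at 8000 Pa in the edgeR fit with the replicate block (adjusted p = 0.00537), and so did CDH5 (adjusted p = 0.000314), at 4.71, 10.3 and 16.2 CPM at 8000 Pa and 1.12, 3.47 and 3.14 CPM at 500 Pa. The part of these markers in the synthetase values was not tested.

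The question was whether synthetase transcripts differed between cells on stiff and on soft gels. No synthetase passed. In the fit on stiffness alone, with no block, 0 of 35 tested members passed an FDR of 0.05 by edgeR's quasi-likelihood test, against 0% of all 11517 tested genes, and 0 members had an unadjusted p under 0.05, against 2.45% of all genes. The lowest adjusted p of a member was 0.9999 by edgeR in that fit. With the replicate number as a block, 0 members passed against 0.53% of all genes, and 1 member, FARSA, had an unadjusted p under 0.05 against 10.6%. DESeq2 and limma-voom also called 0 members. For 0 of the 35 members did the 3 libraries at 8000 Pa separate from the 3 at 500 Pa, where 6.87% of all tested genes did so. In bulk RNA a change in the number of cells expressing a gene and a change in RNA per cell cannot be told apart.

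The precision of the counts bounds these differences. The standard errors of the members' log2 fold changes (8000 Pa over 500 Pa) ran from 0.24 to 0.78 without the block, with a median of 0.31. For 25 of 35 members the 95% interval lay within a log2 fold change of 1 either way, that is within a 2-fold change, and with the block for 32. The interval was narrowest for KARS, the lysyl enzyme, from -0.63 to 0.40, and widest for VARS2, the mitochondrial valyl enzyme, from -1.23 to 2.13.

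**Figure D1:**
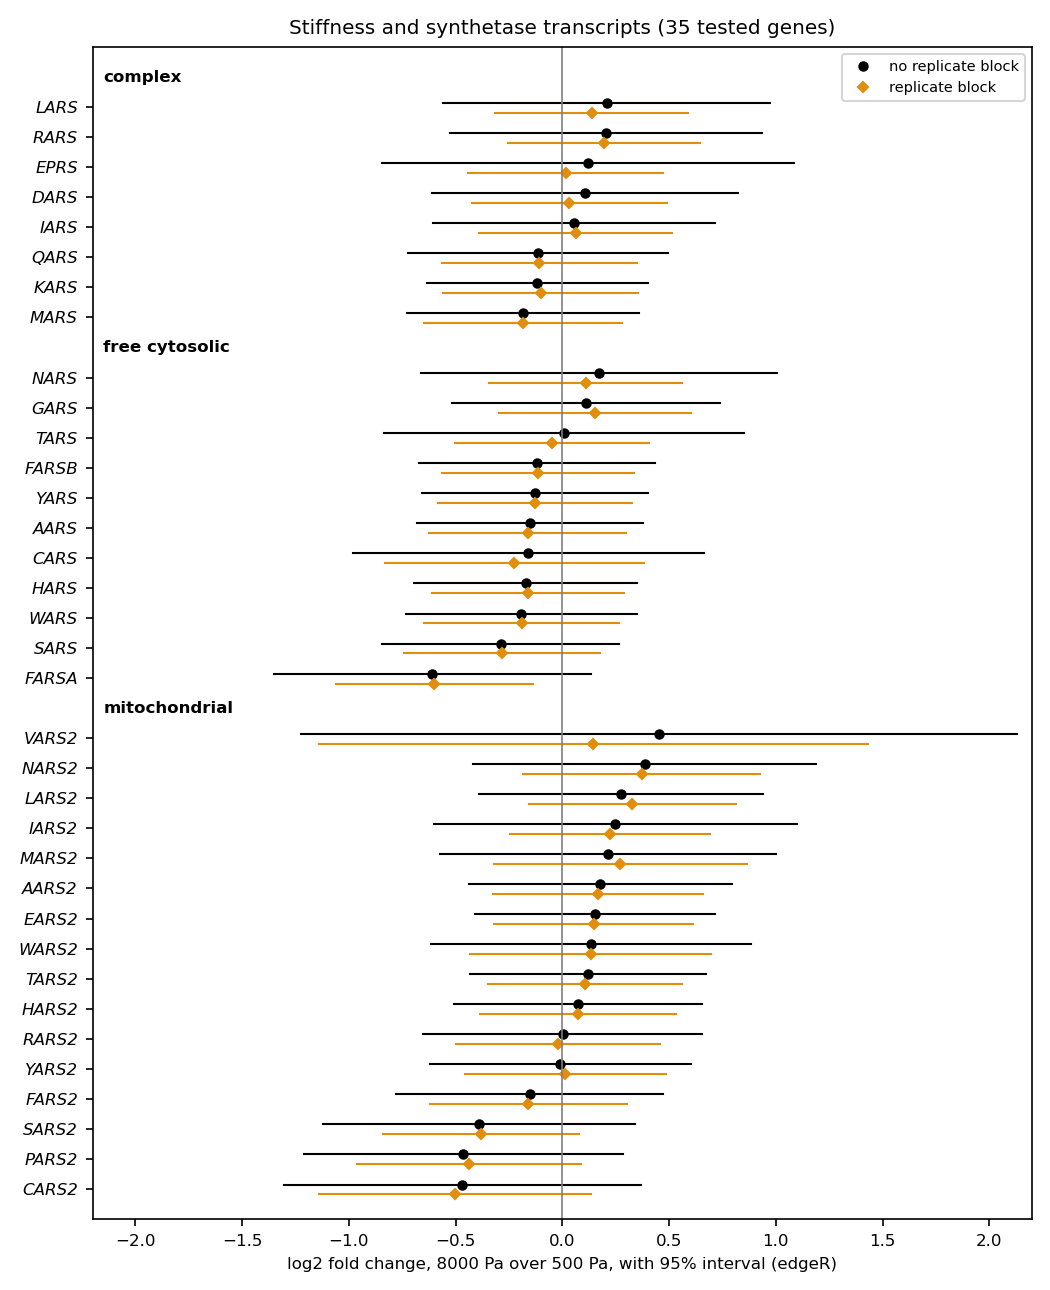
Log2 fold change of each of the 35 tested synthetase genes, 8000 Pa over 500 Pa, with the 95% interval, from edgeR without the replicate block (black circles) and with it (orange diamonds). Without the block every interval includes 0, and with it the interval of FARSA alone does not, although FARSA did not pass the adjusted threshold.

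Cytosolic and mitochondrial genes leaned different ways by small amounts. The 19 tested cytosolic members had a median log2 fold change of -0.12 (range -0.61 to 0.21), with 8 above 0. That count was 1 without 8000 Pa replicate 1, 3 with the GC correction described later and 14 with library size alone as the scaling. The 16 mitochondrial members had a median of 0.13 (range -0.47 to 0.45), with 11 above 0. Over all tested genes the median was 0.0093 and 51.2% lay above 0. By catalytic fold, the 18 tested class I members had a median of 0.087 with 11 above 0, and the 17 class II members -0.12 with 8 above 0. EPRS, which holds a unit of each class, was counted in class I only. Within the replicate numbers the cytosolic medians were -0.25, -0.068 and -0.029 and the mitochondrial medians 0.0032, 0.13 and 0.14. With library size alone as the scaling, the median of all genes moved to 0.17, and the cytosolic and mitochondrial medians were 0.048 and 0.29. Relative to all genes the cytosolic median was then still the lower and the mitochondrial median the higher. The sign of the cytosolic median also rested on single libraries, with 0.018 without 8000 Pa replicate 3 and 0.015 without 500 Pa replicate 1, and the mitochondrial median was 0.047 without 500 Pa replicate 3.

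The 20 cytosolic genes summed to 4267, 3882 and 4169 CPM at 8000 Pa and to 5225, 4012 and 4157 CPM at 500 Pa. The groups overlapped, and 500 Pa replicate 1 was the high library. The 16 mitochondrial genes summed to 673, 704 and 711 CPM at 8000 Pa and to 714.5, 688 and 679 CPM at 500 Pa, again with overlap. As a share of unscaled counts the direction of the cytosolic sum turned round, with 0.437% ± 0.0687 at 8000 Pa and 0.423% ± 0.0739 at 500 Pa (SD, n = 3 each). The cytosolic sum was 5.91 ± 0.416 times the mitochondrial sum at 8000 Pa and 6.42 ± 0.785 times at 500 Pa.

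Of the enzymes of the multi-synthetase complex, 8 of 8 were tested and their log2 fold changes had a median of 0.081 (range -0.18 to 0.21). Its sign rested on single libraries and on base composition, with -0.18 without 8000 Pa replicate 1, -0.036 without 500 Pa replicate 3, 0.34 without 500 Pa replicate 1, 0.31 without 8000 Pa replicate 3 and -0.092 with the GC correction. EPRS, which charges both glutamate and proline tRNA, had 179, 76.4 and 48.1 CPM at 8000 Pa and 131, 97.6 and 50.2 CPM at 500 Pa. Its replicate 1 libraries were high and its replicate 3 libraries low at either stiffness, and the highest library was 3.72 times the lowest. IARS, the isoleucyl enzyme, had 331, 217 and 185 CPM at 8000 Pa and 317, 223 and 165 CPM at 500 Pa, in the same order of replicates. KARS was steadier, with 366, 353 and 346 CPM at 8000 Pa against 442, 403 and 309.5 CPM at 500 Pa. MARS, the methionyl enzyme, had 349.5, 379 and 490.1 CPM at 8000 Pa and 554, 402 and 427 CPM at 500 Pa, with overlapping groups and a log2 fold change of -0.18 in either fit (adjusted p = 0.867 by edgeR with the block). LARS (leucyl), RARS (arginyl) and DARS (aspartyl) had log2 fold changes of 0.21, 0.21 and 0.11, and QARS (glutaminyl) of -0.11, with intervals that all included 0. EPRS, IARS and KARS were chosen for full values after they were seen.

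The complex scaffolds gave a mixed picture. AIMP1 had 56.5, 39.3 and 30.7 CPM at 8000 Pa and 48.9, 44.0 and 33.4 CPM at 500 Pa. AIMP2 had 43.4, 50.3 and 65.7 CPM at 8000 Pa and 91.1, 62.5 and 81.9 CPM at 500 Pa. The AIMP2 groups overlapped at 65.7 against 62.5 CPM, and AIMP2 did not pass (-0.57 on the log2 scale, SE 0.24, in the edgeR fit with the block, adjusted p = 0.323). EEF1E1 had 14.9, 11.1 and 6.98 CPM at 8000 Pa and 10.1, 13.4 and 8.15 CPM at 500 Pa. Of the 3 scaffolds 0 passed in either fit.

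Outside the complex, 11 of 12 cytosolic genes were tested, with a median log2 fold change of -0.15 (range -0.61 to 0.17). The median was -0.049 without 500 Pa replicate 1 and 0.011 with library size alone, which moves the median of all genes to 0.17. FARSA, the catalytic subunit of phenylalanyl-tRNA synthetase, had the fold change farthest from 0 of all members. It had 164, 199.9 and 340 CPM at 8000 Pa and 400.4, 210 and 464 CPM at 500 Pa. The 8000 Pa library was the lower in each replicate number, but 8000 Pa replicate 3 stood above 500 Pa replicate 2. The log2 fold change was -0.61 without the block (SE 0.34). With the block it was -0.60 and did not pass (SE 0.24, edgeR adjusted p = 0.298). FARSA has a GC-rich transcript (61.4%), and after a correction for transcript GC content its log2 fold change was -0.34 without the block and -0.31 with it. Without 500 Pa replicate 3 it was -0.33. FARSB, the other subunit of the same enzyme, had 161, 140 and 118.5 CPM at 8000 Pa and 182, 149.6 and 124 CPM at 500 Pa. Per kb of transcript, FARSA was 1.90, 2.64 and 5.33 times FARSB at 8000 Pa and 4.09, 2.60 and 6.95 times at 500 Pa, so this ratio varied more between replicates than between stiffnesses.

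SARS, the seryl enzyme, had 277, 292 and 383 CPM at 8000 Pa and 457, 302 and 404 CPM at 500 Pa. The groups overlapped, with a log2 fold change of -0.29 (SE 0.26) without the block and an edgeR adjusted p = 0.755 with it. WARS, the tryptophanyl enzyme, is also raised by interferon. It had 263, 281.5 and 364 CPM at 8000 Pa and 397, 282 and 357 CPM at 500 Pa, with a log2 fold change of -0.19 (SE 0.25) without the block and an edgeR adjusted p = 0.860 with it. The remaining free cytosolic enzymes AARS (alanyl), CARS (cysteinyl), GARS (glycyl), HARS (histidyl), NARS (asparaginyl), TARS (threonyl) and YARS (tyrosyl) lay between -0.17 (HARS) and 0.17 (NARS). CARS had few counts for a cytosolic enzyme, 80 to 197 a library, and stood at 9.27, 17.4 and 7.98 CPM at 8000 Pa and at 11.01, 12.7 and 15.01 CPM at 500 Pa.

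VARS, the valyl enzyme, did not pass the filter on low counts. It had 0, 0 and 1 counts at 8000 Pa and 81, 1 and 1 counts at 500 Pa, so all but 3 of its reads came from 500 Pa replicate 1. With no filter, where 16894 genes were tested, VARS did not pass (edgeR adjusted p = 0.0610), and that value rests on the single library. A floor of 3 counts equals 0.240 to 0.317 CPM in the 8000 Pa libraries and 0.168 to 0.429 CPM in the 500 Pa libraries, and covers counting error only. VARS lies at chr6:31777518-31795953 and VARS2 at chr6:30908242-30926459 (GRCh38, GENCODE 29). VARS2 had 5, 7 and 34 counts at 8000 Pa and 26, 3 and 10 counts at 500 Pa. Neighbouring genes known to be active in most cells were also near the floor in these tables, as DDX39B with 0, 0 and 0 counts at 8000 Pa and 0, 1 and 0 at 500 Pa. The low values of VARS and VARS2 are therefore given as listed counts and not as a level of the enzymes.

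The mitochondrial enzymes showed the same overlap between stiffnesses. PARS2, the prolyl enzyme, had 15.7, 19.9 and 24.6 CPM at 8000 Pa and 27.9, 18 and 37.2 CPM at 500 Pa (log2 fold change -0.46, SE 0.35 without the block, edgeR adjusted p = 0.607 with it). CARS2, the cysteinyl enzyme, had 5.75, 11.9 and 8.08 CPM at 8000 Pa and 9.95, 10.2 and 15.6 CPM at 500 Pa (log2 fold change -0.47, SE 0.39 without the block, edgeR adjusted p = 0.636 with it). For either gene the replicate 2 libraries ran against the other replicates. SARS2, the seryl enzyme, had 58.0, 86.9 and 119 CPM at 8000 Pa and 119.7, 71.3 and 154.6 CPM at 500 Pa (log2 fold change -0.39, SE 0.34 without the block, edgeR adjusted p = 0.607 with it). Replicate 2 again ran the other way. Like FARSA it has a GC-rich transcript (61.2%), and its log2 fold change was -0.077 without 500 Pa replicate 3 and -0.12 after the GC correction.

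NARS2, the asparaginyl enzyme, leaned the other way, with 24.8, 22.9 and 12.2 CPM at 8000 Pa and 16.4, 18.9 and 10.4 CPM at 500 Pa. The 8000 Pa library was the higher in each replicate number, but the replicate 3 libraries were low at either stiffness and the groups overlapped (log2 fold change 0.39, SE 0.37 without the block, edgeR adjusted p = 0.718 with it). LARS2, the leucyl enzyme, had 45.0, 40.5 and 44.1 CPM at 8000 Pa and 32.1, 49.6 and 25.3 CPM at 500 Pa. Its values were even at 8000 Pa and spread at 500 Pa, and the log2 fold change was 0.27 (SE 0.31). LARS2 was chosen after its values were seen. AARS2, EARS2, HARS2, IARS2, MARS2, RARS2, TARS2 and WARS2 had log2 fold changes between 0.0011 (RARS2) and 0.25 (IARS2), YARS2 of -0.0096 and FARS2 of -0.15. VARS2, with its few counts, had 0.45 (SE 0.78).

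Only 5 of the 35 members had the same direction in all 3 replicate numbers (14.3%), against 29.8% of all tested genes. They were FARSA, FARSB and SARS, lower at 8000 Pa, and RARS and NARS2, higher. RARS had log2 ratios of 0.27, 0.17 and 0.15 in replicates 1 to 3, and FARSB of -0.18, -0.091 and -0.064. None of the 5 passed in either fit (0 of 5).

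**Figure D2:**
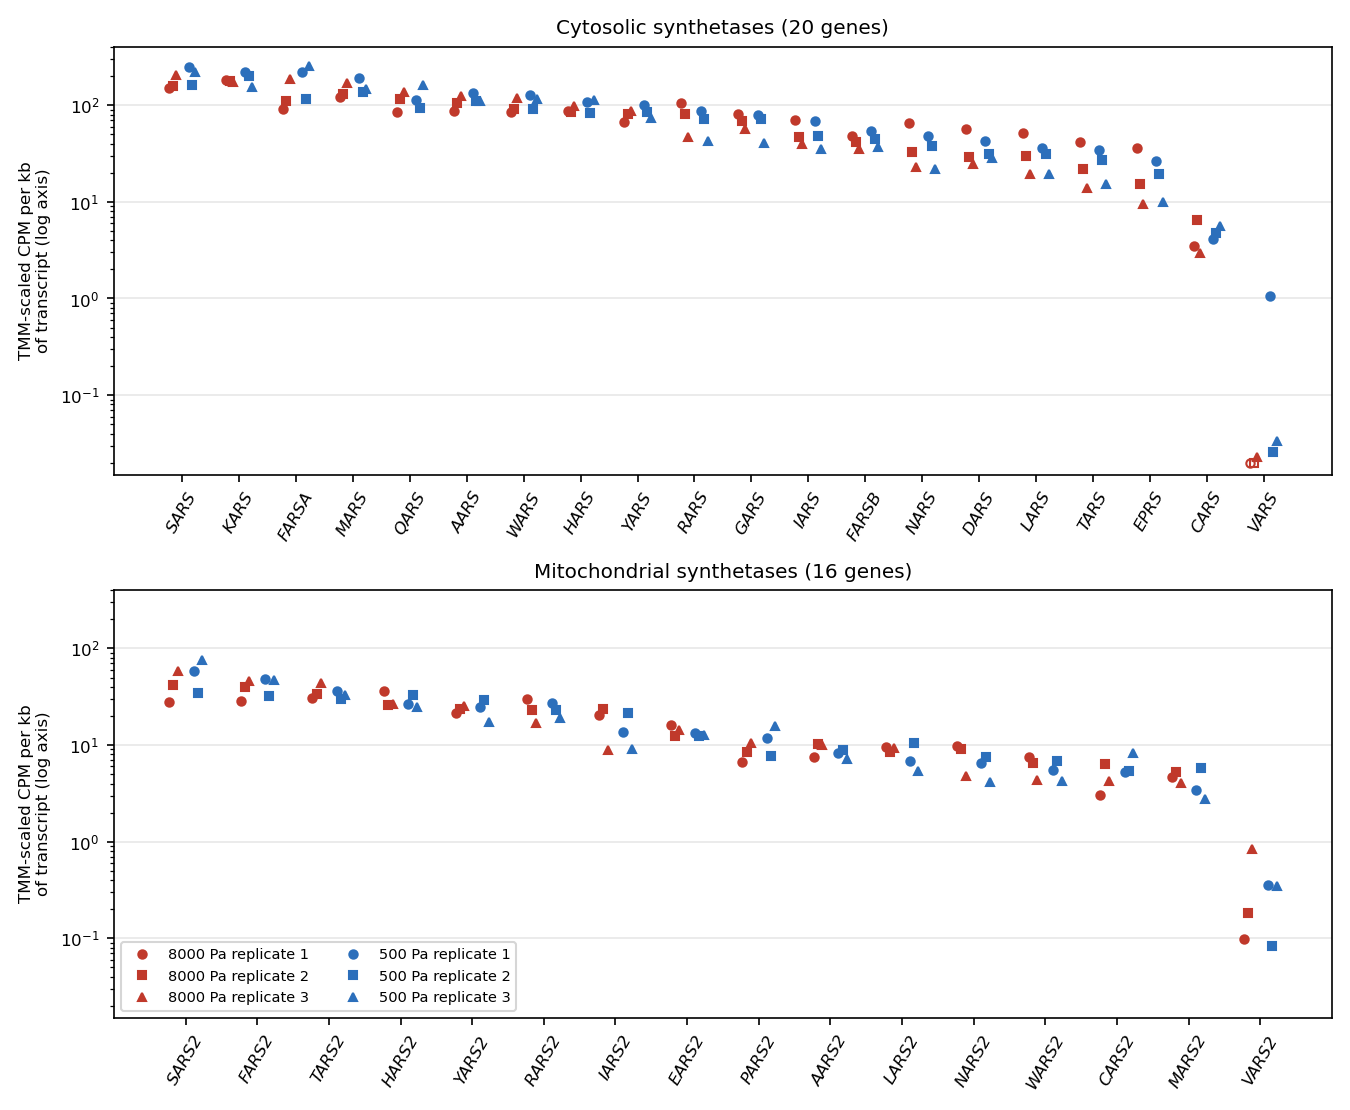
TMM-scaled CPM per kb of transcript (log axis) for the 20 cytosolic genes (top) and 16 mitochondrial genes (bottom), ordered by mean level, with 8000 Pa libraries in red left of the 500 Pa libraries in blue and a symbol shape for each replicate number. Open symbols are counts of 0, drawn at the bottom. The groups overlap for every tested gene, most cytosolic genes stand above most mitochondrial genes, CARS is among the lowest, and VARS and VARS2 stand far below the rest.

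Levels between genes were compared per kb of the principal GENCODE transcript. The cytosolic members had a median of 77.5 CPM per kb at 8000 Pa and 67.2 at 500 Pa, and the mitochondrial members 11.7 and 12.3. By the mean over all 6 libraries SARS and KARS stood highest, although FARSA ranked above KARS at 500 Pa, with SARS at 171 ± 31.1 CPM per kb at 8000 Pa and 209 ± 42.6 at 500 Pa and KARS at 177 ± 5.14 and 192 ± 33.9 (SD, n = 3 each). FARSA, MARS and QARS followed, with means from 113 to 197 CPM per kb and ranges that overlapped those of their neighbours. EPRS stood lowest of the complex at 20.2 ± 13.7 CPM per kb at 8000 Pa and 18.6 ± 8.13 at 500 Pa. Of the mitochondrial genes SARS2 was highest at 42.8 ± 14.8 CPM per kb at 8000 Pa and 56.0 ± 20.3 at 500 Pa, within the range of cytosolic members such as FARSB. Its annotated exons overlap those of MRPS12 on the other strand, so without stated strandedness some of its reads may belong to MRPS12. MARS2, apart from VARS2, was lowest by its mean over all 6 libraries, at 4.67 ± 0.596 and 4.02 ± 1.59 CPM per kb.

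Amino acids with a tested gene for either compartment gave 12 partner pairs. In 9 of the 12 the cytosolic gene had the lower log2 fold change, with a median difference of -0.16. The methionyl pair was the most unequal in level, with MARS at 30.6 ± 9.19 times MARS2 per kb at 8000 Pa and 43.9 ± 17.4 times at 500 Pa. The alanyl pair was steadier, with AARS at 11.5 ± 1.24 times AARS2 at 8000 Pa and 14.5 ± 1.84 times at 500 Pa. In the threonyl pair the mitochondrial gene stood as high as the cytosolic gene, with TARS at 0.769 ± 0.511 times TARS2 at 8000 Pa and 0.769 ± 0.274 times at 500 Pa. The cysteinyl pair was also near 1, at 0.947 ± 0.228 at 8000 Pa and 0.775 ± 0.101 at 500 Pa. HARS and HARS2 are neighbours read in opposite directions on chromosome 5, and their annotated first exons overlap, so without stated strandedness their reads there cannot be told apart. HARS had a log2 fold change of -0.17 and HARS2 of 0.075, with HARS at 3.14 ± 0.677 times HARS2 at 8000 Pa and 3.75 ± 1.12 times at 500 Pa.

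The replicate number and stiffness were compared by their share of each gene's variation. In log2 CPM, the replicate number held a median of 57.9% of each member's sum of squares and stiffness 8.90%, against 58.5% and 11% over all tested genes. The replicate number has 2 of the 5 degrees of freedom and stiffness 1. With no effect of either they would hold 40% and 20% on average. Those are means and the shares given here are medians, so the 2 measures are not directly comparable. The members' shares were near those of all genes. The replicate number held more than stiffness for 33 of 35 members (94.3%), against 82.4% of all genes. In the multi-synthetase complex the medians were 89.4% for the replicate number and 2.38% for stiffness, and for IARS the replicate number held 98.0%. The exceptions among the 35 were AARS and YARS. The highest library exceeded the lowest by 1.30 times (EARS2) to 3.72 times (EPRS), apart from VARS2 at 10.1 times.

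The replicate pattern went with the base composition of the transcript. Of the 17 members whose transcript was under 50% GC, 12 were highest in 8000 Pa replicate 1 and 10 were lowest in 500 Pa replicate 3. Of the 18 members with at least 50% GC, 11 were lowest in 8000 Pa replicate 1 and 6 highest in 500 Pa replicate 3. In replicate 1 the log2 ratio of 8000 Pa over 500 Pa had a median of 0.42 in the members under 50% GC and -0.60 in the others. In replicate 2 these medians were -0.091 and 0.084, and in replicate 3 they were 0.082 and 0.0033. Across the 35 members, which share the same 6 libraries, Spearman's rho between GC content and the log2 ratio was -0.76 in replicate 1, 0.51 in replicate 2 and -0.0090 in replicate 3. Over 11003 tested genes it was -0.62, 0.060 and 0.017. With the GC correction and the block, 0 of 35 members passed, against 83 of all 11517 tested genes. The cytosolic and mitochondrial medians were then -0.11 and 0.040. The part of base composition in the differences between classes was not tested beyond this correction.

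**Figure D3:**
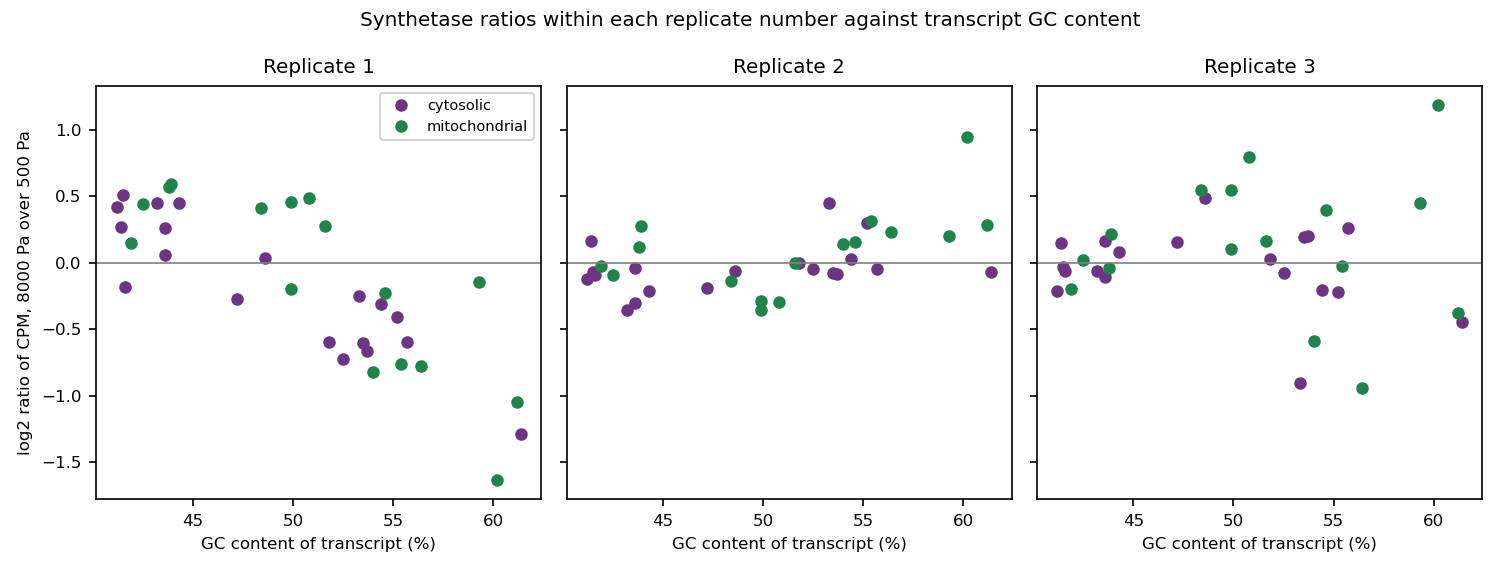
Log2 ratio of CPM, 8000 Pa over 500 Pa, within each replicate number against the GC content of the transcript (%), for 19 cytosolic (purple) and 16 mitochondrial (green) genes. In replicate 1 the ratio falls with GC content (Spearman's rho -0.76), while replicates 2 and 3 show rho of 0.51 and -0.0090.

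Synthetases were then set beside the amino acid response that regulates them. The 11 cytosolic members reported as ATF4-induced (AARS, CARS, EPRS, GARS, IARS, MARS, NARS, SARS, TARS, WARS and YARS) had a median log2 fold change of -0.13 (range -0.29 to 0.17), and the 8 other tested cytosolic members -0.12 (range -0.61 to 0.21). The 6 genes whose promoters are printed here with the TGATGCAA match had log2 fold changes from -0.18 to 0.17, with a median of -0.071 and 3 above 0. The 10 cytosolic genes with a window and no match had a median of -0.12 and 3 above 0. ATF4 itself had 230, 314 and 308 CPM at 8000 Pa and 329, 393 and 280 CPM at 500 Pa, and did not pass (log2 fold change -0.24, SE 0.25).

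The difference between that response and the synthetases was not tested, and their values are given side by side. Of 12 tested members of the amino acid response list, 11 had a log2 fold change below 0 and the median was -0.49, with medians of -1.002, -0.29 and 0.016 in replicates 1 to 3. Without the block 0 of 12 passed, and with it 1 fell (CHAC1), against 0.269% of all genes called lower. CHAC1, which degrades glutathione, had 2.80, 4.44 and 8.08 CPM at 8000 Pa and 15.3, 9.06 and 17.0 CPM at 500 Pa (-1.51 on the log2 scale, SE 0.34, in the edgeR fit with the block, adjusted p = 0.00467). For 3 of the 12, CHAC1, DDIT3 and SESN2, the 8000 Pa libraries all lay below the 500 Pa libraries, as for 2.85% of all genes. ASNS, asparagine synthetase, which makes the amino acid that NARS charges, had 138, 145 and 135 CPM at 8000 Pa and 273, 230.4 and 129.5 CPM at 500 Pa. The ASNS values were even at 8000 Pa, and at 500 Pa replicate 3 stood as low as they did. DDIT3, a stress-induced transcription factor whose exons overlap those of MARS on the other strand, had 8.63, 9.40 and 10.9 CPM at 8000 Pa and 18.5, 11.5 and 16.1 CPM at 500 Pa. SESN2, a leucine-sensing regulator of mTORC1, had 3.44, 5.18 and 4.09 CPM at 8000 Pa and 6.26, 5.59 and 6.43 CPM at 500 Pa. The amino acid response list was chosen with earlier results of these data known, so its direction is not independent evidence.

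**Figure D4:**
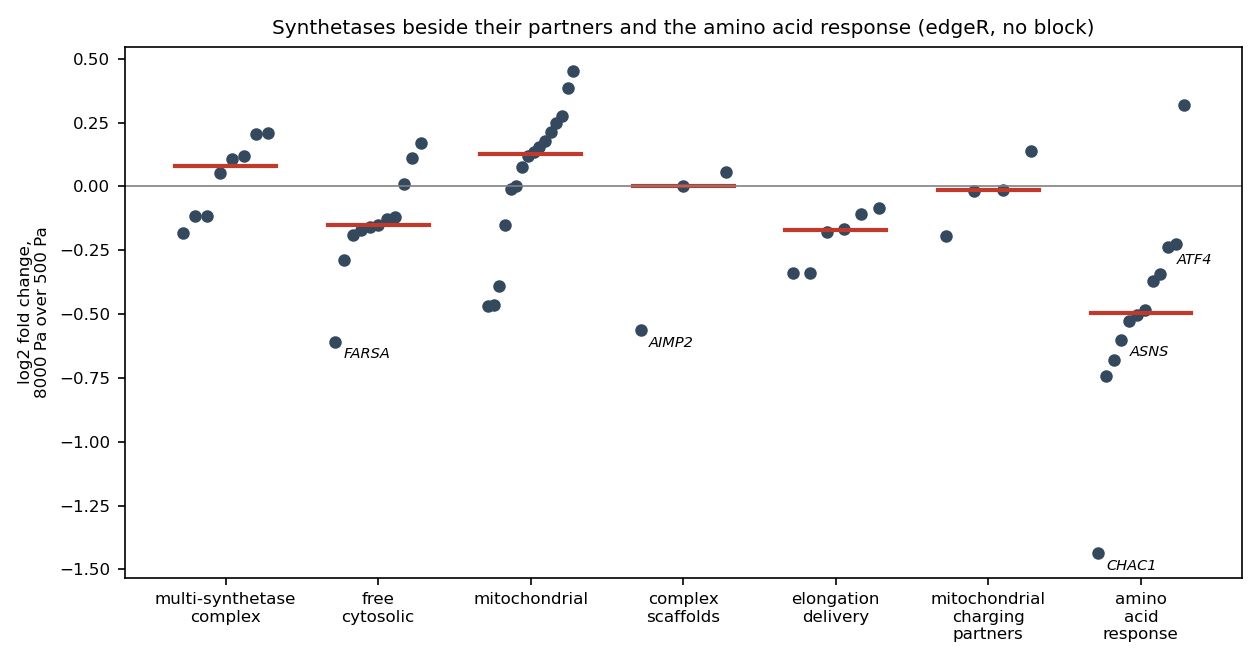
Log2 fold change, 8000 Pa over 500 Pa (edgeR without the replicate block), for each tested gene of the synthetase classes and of their partner lists, with red bars at the list medians. The synthetase medians lie between -0.15 and 0.13, and the amino acid response has a median of -0.49 with CHAC1 lowest. No GC correction was applied to these values.

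Genes that act next to the synthetases gave small values too. The 6 tested genes that deliver charged tRNA to the ribosome or recycle the carrier (EEF1A1, EEF1B2, EEF1D, EEF1G, TUFM and TSFM) had log2 fold changes from -0.34 to -0.083, and 0 passed in either fit. EEF1D had few counts, 12 to 44 a library, and its log2 fold change was -0.34 (SE 0.52). TUFM, the mitochondrial elongation factor that carries charged tRNA, had 437, 571 and 809 CPM at 8000 Pa and 816, 544 and 937 CPM at 500 Pa. In mitochondria, GATB, GATC and QRSL1 make glutaminyl-tRNA from glutamyl-tRNA charged by EARS2, and MTFMT formylates the initiator methionyl-tRNA charged by MARS2. Of these 4, 0 passed. MTFMT had 20.4, 21.1 and 18.3 CPM at 8000 Pa and 22.1, 24.1 and 22.3 CPM at 500 Pa. Those groups did not overlap, as for 2.85% of all tested genes in that direction. The log2 fold change of MTFMT was -0.19 (SE 0.29). The amino acid sensor kinase EIF2AK4 and the transcription factor MYC had log2 fold changes of -0.093 and 0.021.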

How the data were processed

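Expression was measured by RNA sequencing in 6 libraries, 3 at 8000 Pa and 3 at 500 Pa, grouped by their labels. For each library the authors deposited raw counts per gene symbol, made with HISAT2 2.1.2 and HTSeq 0.11.4 on GRCh38 per the submitters' processing notes. The deposited log2 values, TMM-scaled per the file headers, were not used for the results. How strands and multiply mapped reads were treated, and how RNA was selected, is not given in the sources used here. Value columns of no sample numbered 0. Counts were filtered with filterByExpr (minimum count 10, minimum total 15), TMM-scaled and tested with edgeR 4.0.16 in R 4.3.3, stiffness alone, with Benjamini-Hochberg adjustment over all 11517 tested genes at an FDR of 0.05. Alternatives were a replicate block, DESeq2 1.42.0, limma-voom (limma 3.58.1), other scalings and filters, a GC offset and leaving out libraries. GENCODE 29 supplied a transcript's length and base composition for 95.5% of tested genes. The steps were tested on simulated data drawn with no replicate or GC effect, unlike the libraries here.

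The deviations of same-numbered libraries from their group means were correlated across genes at 0.409, 0.184 and 0.516 for replicates 1 to 3, each above 0.1, so the numbers were taken to pair the samples. Of libraries with unlike numbers, 8000 Pa replicate 1 and 500 Pa replicate 2 had 0.199, above the value for replicate 2, and the other such pairs lay between -0.499 and 0.0491. The numbers stand in the labels, which name no shared day. The fit on stiffness alone stayed the main fit, and the block was run as an alternative. An SE given without the block and an adjusted p given with it therefore belong to different fits. With the block 2 residual degrees of freedom remain per gene and the prior degrees of freedom were infinite, so those p-values rest on a spread trend shared by all genes. All pairs of libraries differed by more than sampling noise.

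Full values were given for members that passed, members whose groups did not overlap, and the 4 cytosolic and 4 mitochondrial members of lowest unadjusted p without the block, which gave FARSA, SARS, WARS, MARS, PARS2, CARS2, SARS2 and NARS2. The members and lists were chosen with earlier results of these data known. Annotated exons of 15 members overlap another gene and 11 members have an annotated pseudogene, so their counts may be split.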

Additional observations from a re-analysis of the deposited data

How the results depend on the processing

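No synthetase passed under any setting that was run (0 members). Over all genes the count was 0 without the block, 61 with the replicate block, 7 with DESeq2, 42 with DESeq2 and the block, 8 with no filter on low counts and 83 with the GC offset and the block. It was 0 to 1 with single libraries left out and 12 (without replicate 3), 38 (without replicate 1) and 81 (without replicate 2) with the block. The cytosolic median was -0.12 without the block and -0.11 with it, 0.048 with library size alone, -0.15 to 0.018 with single libraries left out (the highest without 8000 Pa replicate 3, and 0.015 without 500 Pa replicate 1), and -0.12 to 0.00045 with the block and a replicate number left out. The mitochondrial median was 0.13 without the block and 0.12 with it, 0.29 with library size alone, 0.040 with the GC offset and the block, 0.047 to 0.16 with single libraries left out (the lowest without 500 Pa replicate 3) and 0.11 to 0.16 with the block and a replicate number left out. The causes of these shifts were not tested. VARS alone had an unadjusted p under 0.05 with no filter on low counts. Of 152 values of named members under the alternatives, 150 kept their direction, and none passed anywhere (0). The 2 others were WARS at 0.032 and MARS at 0.076, with the block and without replicate 1. In that same fit FARSA was at -0.24, SARS at -0.042, SARS2 at -0.030, PARS2 at -0.215, CARS2 at -0.33 and NARS2 at 0.27. All these values are refits of the same libraries and are not independent of each other. With single libraries left out and no block, the log2 fold changes ran from -0.97 to -0.33 for FARSA, -0.44 to -0.15 for SARS, -0.32 to -0.071 for WARS, -0.32 to -0.019 for MARS, -0.70 to -0.15 for PARS2, -0.78 to -0.19 for CARS2, -0.66 to -0.077 for SARS2 and 0.20 to 0.68 for NARS2. Among these fits with no block, the values nearest 0 were those without 500 Pa replicate 3 for FARSA, PARS2, CARS2 and SARS2. For SARS, WARS and MARS they were those without 500 Pa replicate 1, and for NARS2 that without 8000 Pa replicate 1. The block changed no call among the synthetases. Leaving out a library can leave 2 samples in a group, and depth limits VARS, VARS2, CARS, CARS2 and MARS2 most.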

Other observations

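The valyl genes lie in a stretch of chromosome 6 where few reads were listed. Between VARS2 and VARS (chr6:30908242-31795953, GRCh38, GENCODE 29), 46 of 51 annotated protein-coding genes were in the tables, and 35 of them (76.1%) had a mean of at most 10 counts a library, against 42.6% of all 18579 protein-coding genes matched. BAG6, a chaperone gene active in most cells, lay above that limit and was not among the 35. It had 4, 3 and 48 counts at 8000 Pa and 9, 5 and 14 counts at 500 Pa. CSNK2B, a casein kinase subunit, lay above the limit too. Its counts were 15, 35 and 58 at 8000 Pa and 51, 18 and 21 at 500 Pa. In the same stretch HLA-C had 1697, 2239 and 3201 counts at 8000 Pa and 3928, 2792 and 3877 counts at 500 Pa, so not every gene there was low. The treatment of multiply mapped reads is unknown here, and its part was not tested.

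CARS, the lowest tested cytosolic gene, has a neighbour on chromosome 11 with few counts as well. NAP1L4, a histone chaperone gene at chr11:2944431-2992377, had 93, 158 and 55 counts at 8000 Pa and 117, 75 and 25 counts at 500 Pa. PHLDA2, an imprinted gene nearby, had 1, 3 and 2 counts at 8000 Pa and 1, 1 and 1 counts at 500 Pa. SLC22A18, an imprinted neighbour of both, was not low, with 183, 95 and 483 counts at 8000 Pa and 279, 222 and 458 counts at 500 Pa. These genes were chosen after their values were seen.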
